A study of Homo sapiens with 6 samples.

Results

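The transcripts described here are those of the p53 circuit that were read in RNA pulled down with the double-stranded RNA-binding protein Stau1. They are the p53 regulators MDM2 and MDM4 and the p53 target or related genes SHISA5, RRM2, RRM2B, CDKN1A, BBC3, BAX and SESN1. Members were chosen by gene symbol, and each of the 9 symbols matched 1 of the 37879 targets of the array, of which 25233 carry a symbol. RNA was measured in 3 control IPs and 3 Stau1 IPs. For the control IPs, HEK293T cells had received an empty vector, and for the Stau1 IPs they had received a plasmid for Stau155-FLAG, a form of Stau1 that carries a FLAG tag. Cells of both groups were held in prometaphase with the microtubule poison nocodazole. The labels give a concentration of 50 ng/ml and a time of 15 h, whereas the methods give a longer time. Both groups went through the same anti-FLAG immunoprecipitation. Nothing in the sources says that the IPs came from separate cultures, so that p-values measure only the spread between these samples.

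p53 is a transcription factor that answers DNA damage and other stress by inducing genes of cell cycle arrest, apoptosis and repair. MDM2 is the ubiquitin ligase that marks p53 for degradation, and MDM4 binds the activation domain of p53 and pairs with MDM2 through its RING domain. HEK293T is an established human embryonic kidney line that expresses the SV40 large T antigen, which binds p53, so that these cells are a limited model of the circuit. The Stau1 in the IPs is a tagged protein made from a plasmid. Total RNA was not analysed here, and from the IPs alone more of a transcript per IP cannot be told apart from more of it in the cells. The paper compared total RNA of prometaphase cells that had received the plasmid or the empty vector. The paper reports that the tagged protein did not largely change the transcriptome of these cells. Whether this holds for each transcript described here was not tested. p53's own transcript was not analysed here.

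The arrays numbered 2 stood apart from their labels. Stau1 IP 1 and Stau1 IP 3 correlated at 0.996 (Pearson's r of normalized signals across the 9884 targets that were detected on every array). The array labelled Stau1 IP 2 correlated with them at 0.940 and 0.943, and at 0.976 with control IP 3. The array labelled control IP 2 correlated at 0.983 and 0.984 with Stau1 IP 1 and Stau1 IP 3, and at 0.977 and 0.982 with control IP 1 and control IP 3. Targets are not independent replicates, and these values are descriptions. The labels were kept, both arrays are shown singly, and each comparison was also made without them, with 2 arrays against 2. The arrays to leave out were picked from these same data. Intervals and p-values without them depend on that choice and are descriptions. On the 6 arrays, between 11635 and 13054 targets were detected, that is, had a deposited detection p under 0.05. The median number of beads behind a value was 41. Bead numbers of some targets were not whole, as for a mean over several probes. The detection p of such a target need not follow its printed signal. Detection therefore describes the call only, and a target called not detected is not shown to be absent. Of 7 markers of HEK293T, 6 were detected on all arrays, and the summed signal of the 7 was 10160 to 13950 in control IPs and 10158 to 11273 in Stau1 IPs. VIM made up most of each sum, at 8195 to 11411 in control IPs and 8022.5 to 9487 in Stau1 IPs. The sum therefore describes mainly VIM. Of 5 markers of other cell types, PTPRC, CD3E, ALB and COL1A2 were detected on no array, whereas PECAM1 was detected on all 6. The summed signal of these 5 was 459 to 530 in control IPs and 448 to 525 in Stau1 IPs. The 4 mitotic markers CCNB1, PLK1, AURKA and CDC20 were detected on every array. The array signal of STAU1 was 2499, 3246 and 2758 in control IPs 1 to 3 and 2845, 1857 and 3130 in Stau1 IPs 1 to 3, so that the groups overlapped. This transcript had the detection call on 5 of 6 arrays. Its signal lay far above the estimated negative control medians of 77.6 to 89.6 on all 6, so that the missing call does not show absence. The STAU1 signal does not check which IPs held the tagged protein.

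Among the 9 transcripts, SHISA5, RRM2 and MDM4 had their highest signals on Stau1 IP 1, Stau1 IP 3 and the array labelled control IP 2, and low signals on the array labelled Stau1 IP 2. BAX was higher on every Stau1 IP than on every control IP, including the arrays numbered 2. By the labels, no member passed the threshold of a change over 2.5-fold with p under 0.05. With the arrays numbered 2 left out, SHISA5 passed it at 3.74-fold. MDM2 and BBC3 were detected on no array. SHISA5, RRM2 and MDM4 are among the p53 genes that the study selected from these same arrays, and their direction is not independent evidence.

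**Figure D1:**
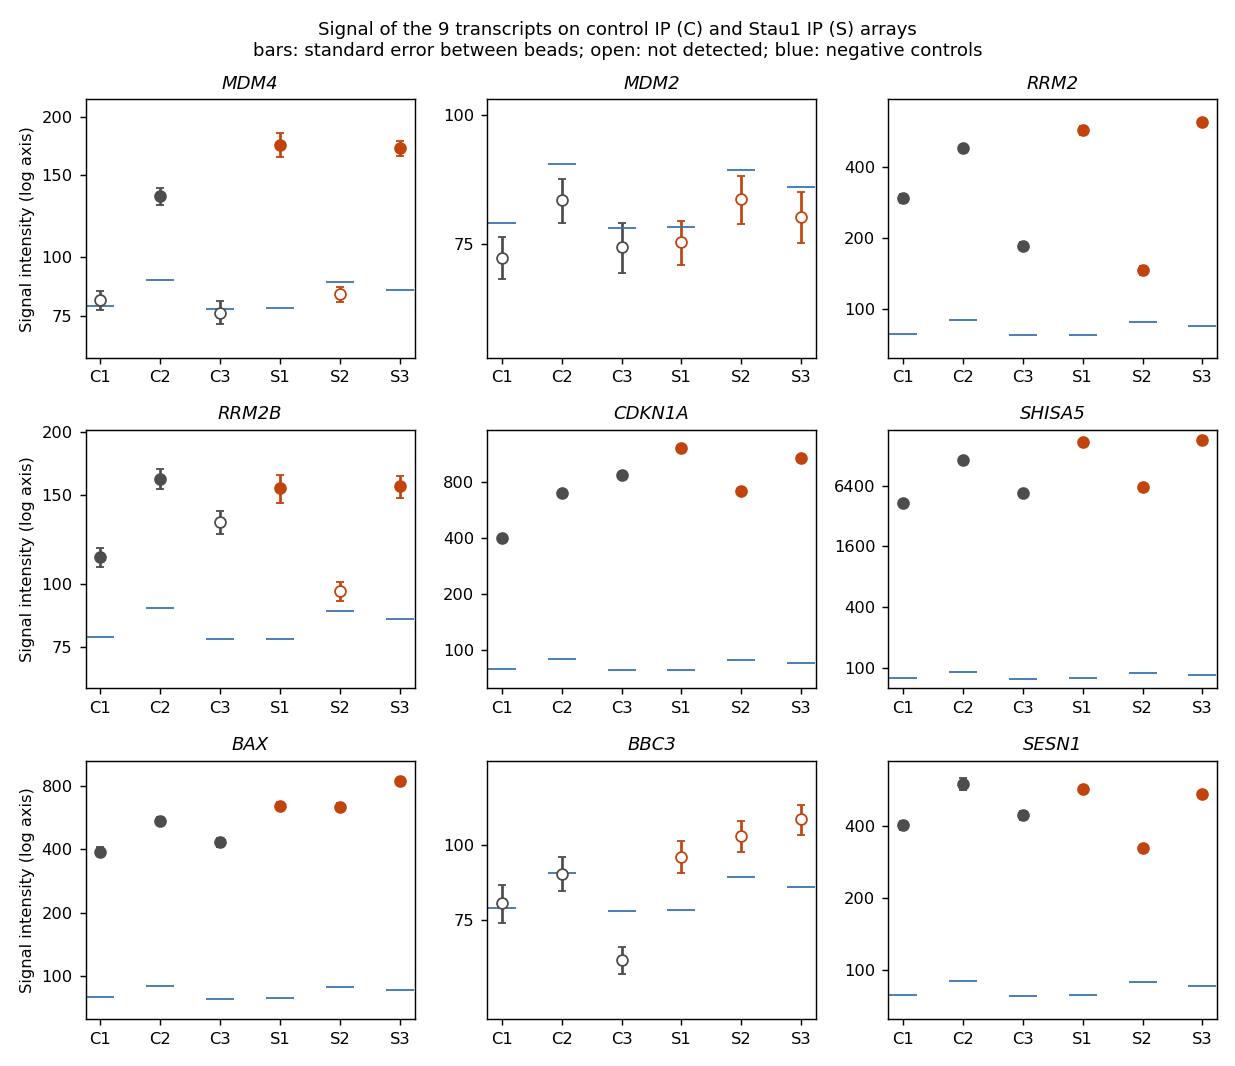
Array signal of each transcript (log axis, not background subtracted) on control IPs 1 to 3 (C1 to C3, grey) and Stau1 IPs 1 to 3 (S1 to S3, orange), with the standard error between beads as bars. Open circles mark arrays on which the transcript was not detected, and blue dashes mark the median of the negative controls. SHISA5, RRM2 and MDM4 are high on C2, S1 and S3, whereas every Stau1 IP lies above every control IP for BAX.

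Both regulators of p53 lay near background on several or all arrays. MDM2, read on the plus strand of chromosome 12, had signals of 72.7, 82.6 and 74.4 in control IPs 1 to 3 and 75.2, 82.8 and 79.7 in Stau1 IPs 1 to 3. All of these lay below the estimated negative control median of their arrays, which ranged from 77.6 to 89.6, and no fold is given. MDM4, on the plus strand of chromosome 1, had signals of 81.0, 135 and 76.2 in control IPs and 174, 83.3 and 171 in Stau1 IPs. It was detected on 3 arrays, Stau1 IP 1, Stau1 IP 3 and the array labelled control IP 2. After subtraction of the estimated negative control median, the signal was 96.4 and 86.1 on Stau1 IP 1 and Stau1 IP 3. It was 45.7 on the array labelled control IP 2 and between -5.16 and 2.42 on the other 3 arrays. By the labels, the normalized log2 signal of MDM4 differed by 0.32 (SE 0.24, 95% confidence interval -0.27 to 0.92, n = 3 against 3, adjusted p = 0.810 in limma). With the arrays numbered 2 left out, MDM4 was not detected on either control IP left, so that no fold is given. The fitted difference against these undetected values was 0.70 on the normalized log2 scale (SE 0.050, adjusted p = 0.0167 in limma). Whether the change exceeded 2.5-fold cannot be read from these values. Over the 5 normalizations tried with these arrays left out, the fitted difference ranged from 0.073 to 0.78. Its adjusted p in limma ranged from 0.00884 to 0.0844, and was under 0.05 in 4 of them. The transformation adds a constant of 114 to 158 to the signal and so understates the change of a dim transcript such as MDM4. With neqc, the difference was 0.035 by the labels and 0.073 without the arrays numbered 2. Both are smaller still than those of the main transformation, so that neqc is not a check free of this understatement. It also estimated background from the detection p, which need not follow the signal.

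RRM2 and RRM2B are the alternative small subunits of ribonucleotide reductase, the enzyme that makes deoxyribonucleotides. RRM2, the subunit of S phase, on the plus strand of chromosome 2, was detected on all 6 arrays. Its signal was 296, 482 and 186 in control IPs 1 to 3 and 577, 146 and 622 in Stau1 IPs 1 to 3. The highest net signal was 9.28 times the lowest, the widest span on the net scale among the 5 members detected on all arrays, and the lowest array was the one labelled Stau1 IP 2. By the labels, RRM2 differed by 0.22 on the normalized log2 scale (SE 0.50, 95% confidence interval -1.04 to 1.48, adjusted p = 0.953 in limma), and the groups overlapped. With the arrays numbered 2 left out the difference was 0.94 (SE 0.23, 1.92-fold, adjusted p = 0.143 in limma). This value depended on the normalization. The weighting of the spline that was computed first gave 1.17 with an adjusted p of 0.0394 in limma, median centring gave 1.11 with 0.0473, quantile normalization gave 0.94 with 0.0732 and neqc gave 0.30 with 0.202, all without the arrays numbered 2. Thus RRM2 passed the adjusted test in 2 of 5 normalizations and, on these transformed scales, the fold threshold in 0 of 5. The constant of 114 to 158 that the main transformation adds also understates the change of RRM2. Its net signals, which are not normalized, were 217 and 108 on control IP 1 and control IP 3. They were 499 and 537 on Stau1 IP 1 and Stau1 IP 3. The transformed values therefore do not show that the change of RRM2 lay under the fold threshold.

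RRM2B, the p53-inducible subunit, is on the minus strand of chromosome 8. Its signal was 113, 162 and 133 in control IPs and 155, 96.8 and 156 in Stau1 IPs, and it was detected on all arrays but control IP 3 and Stau1 IP 2. The call did not follow the signal, since the detection p was 0.0034 on control IP 1 and 0.072 on control IP 3. The same arrays were high as for RRM2. By the labels it differed by -0.06 on the log2 scale (SE 0.16, adjusted p = 0.961 in limma), and by 0.16 without the arrays numbered 2 (adjusted p = 0.468 in limma).

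CDKN1A encodes p21, the inhibitor of cyclin-dependent kinases that carries the arrest response of p53. On the plus strand of chromosome 6, it had signals of 400, 700 and 873 in control IPs 1 to 3 and 1217, 717 and 1073 in Stau1 IPs 1 to 3. The groups overlapped, because the array labelled Stau1 IP 2 lay below control IP 3 in signal. The spread was not that of RRM2, since control IP 1 was the lowest array and the array labelled control IP 2 lay between the other 2 controls. The difference was 0.55 (SE 0.25, 95% confidence interval -0.09 to 1.18, adjusted p = 0.646 in limma) by the labels and 0.65 (SE 0.34, adjusted p = 0.488 in limma) without the arrays numbered 2.

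The genes of apoptosis fell into different patterns. SHISA5, also called Scotin, is a p53-induced protein of the endoplasmic reticulum and nuclear envelope that promotes apoptosis. Read on the minus strand of chromosome 3, it had signals of 4366, 11631 and 5443 in control IPs 1 to 3 and 17346, 6189 and 18415 in Stau1 IPs 1 to 3. The high arrays were Stau1 IP 1, Stau1 IP 3 and the array labelled control IP 2, and the array labelled Stau1 IP 2 lay among the controls. The standard error between beads was at most 4.11% of the signal, whereas the normalized values spanned 2.09 on the log2 scale. The normalized log2 mean of the control IPs was 12.76 ± 0.67 (SD, n = 3), and that of the Stau1 IPs was 13.73 ± 0.97 (SD, n = 3). By the labels the difference was 0.97 (SE 0.59, 95% confidence interval -0.50 to 2.43, adjusted p = 0.750 in limma), and the 2-sided exact permutation p was 0.2. With the arrays numbered 2 left out it was 1.90 (SE 0.12, 3.74-fold, 95% confidence interval 1.57 to 2.24, adjusted p = 0.0144 in limma). This interval and this p-value depend on leaving out arrays that were picked from these same data. The difference passed 2.5-fold and p under 0.05 in each of 5 normalizations with these arrays left out, between 1.74 and 2.15 on the log2 scale, and its adjusted p was under 0.05 in 4 of them and 0.0745 with neqc.

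BAX, which permeabilizes the outer mitochondrial membrane, is on the plus strand of chromosome 19. Its signal was 391, 550 and 432 in control IPs 1 to 3 and 647, 642 and 850 in Stau1 IPs 1 to 3. Every Stau1 IP lay above every control IP, and the array labelled Stau1 IP 2 lay with its label. Normalized log2 means were 9.18 ± 0.059 (SD, n = 3) and 9.71 ± 0.13 (SD, n = 3). The difference of 0.53 (1.44-fold, SE 0.074, 95% confidence interval 0.34 to 0.71) did not pass the adjusted test in limma, with an adjusted p of 0.159 over all targets. Its unadjusted p was 0.000599 in limma, and the 2-sided exact permutation p was 0.1, the smallest that 3 against 3 allow. Without the arrays numbered 2 the difference was again 0.53 (SE 0.092, adjusted p = 0.0704 in limma), and over 5 normalizations it ranged from 0.26 to 0.77 and passed the adjusted test in 1.

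BBC3 encodes PUMA, a BH3-only protein that frees BAX-like effectors from their inhibitors, and is read on the minus strand of chromosome 19. Its signal was 80.0, 89.5 and 64.4 in control IPs and 95.5, 103 and 110 in Stau1 IPs. The groups did not overlap, and the adjusted p was 0.260 in limma (unadjusted 0.00414, 2-sided exact permutation p = 0.1). The transcript was detected on no array, so that no fold is given. SESN1, a sestrin that restrains growth signalling under stress, is on the minus strand of chromosome 6. Its signal was 403, 602 and 443 in control IPs and 571, 324 and 543 in Stau1 IPs. The same arrays were high as for SHISA5, and the groups overlapped. The difference was -0.02 (SE 0.10, adjusted p = 0.980 in limma) by the labels and 0.13 (adjusted p = 0.544 in limma) without the arrays numbered 2.

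**Figure D2:**
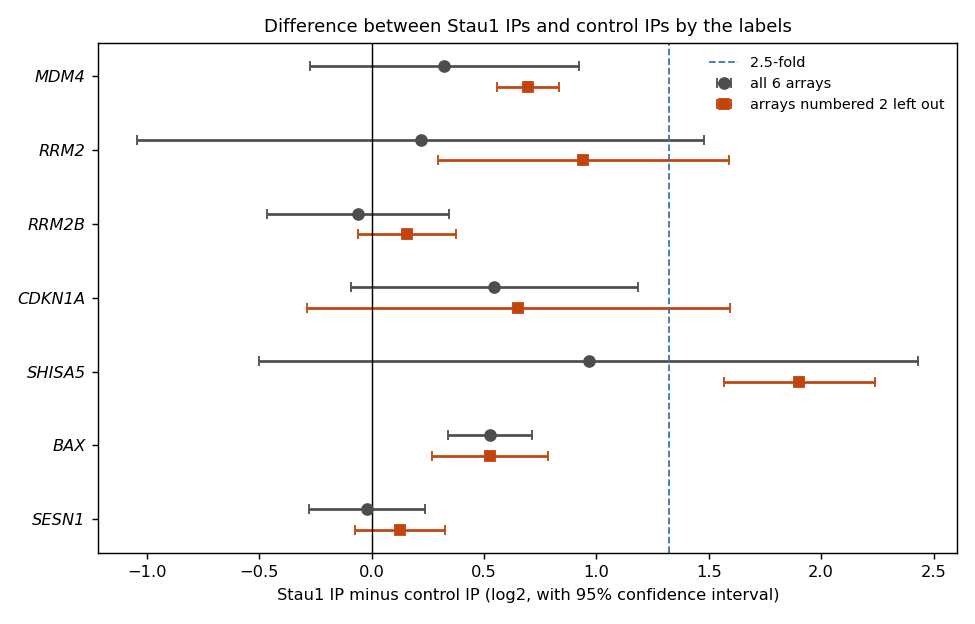
Difference of the normalized log2 signal between Stau1 IPs and control IPs for the 7 members detected on at least 1 array, with its 95% confidence interval, on all 6 arrays (grey circles) and without the arrays numbered 2 (orange squares). For MDM4 the value without the arrays numbered 2 is the fitted difference against control IPs in which it was not detected, and no measure of its fold. The dashed line marks 2.5-fold, which SHISA5 passes without the arrays numbered 2, and the interval of BAX lies above 0 in both.

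By the labels, 0 of the 9 members were enriched and 0 were depleted at 2.5-fold and p under 0.05, against 0.00264% and 0% of all targets. At an adjusted p under 0.05 in limma, 0 members and 0% of all targets were called. At an unadjusted p under 0.05 in limma, 2 members, BAX and BBC3, were higher in Stau1 IPs, against 3.65% of all targets and 9.48% of those detected on all arrays, and 0 were lower, against 5.2% and 12.6%. These 2 were also the members in which every Stau1 IP lay above every control IP, against 6.4% of all targets and 9.6% of those detected on all arrays. The median difference of the members was 0.22 on the log2 scale, and that of all targets was 0.0013. Of the 7 members detected on at least 1 array, 5 lay above 0, with a median of 0.32. With the arrays numbered 2 left out, 1 member was enriched, against 0.612% of all targets and 1.99% of those detected on all arrays, and 0 were depleted, against 0.0396% and 0.142%. SHISA5 and MDM4 were higher at an adjusted p under 0.05 in limma, against 3.16% of all targets and 9.24% of those detected on all arrays. Both Stau1 IPs lay above both control IPs for 8 of 9 members, all but MDM2 and including the undetected BBC3, against 22.6% of all targets and 31.6% of those detected on all arrays. The median difference was then 0.53, against -0.0023 for all targets. It was 0.65 over the 7 members detected on at least 1 array, all 7 of which lay above 0.

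Members differed in how the arrays numbered 2 stood to the rest of their groups. The 3 highest arrays were Stau1 IP 1, Stau1 IP 3 and the array labelled control IP 2 for MDM4, SHISA5, RRM2, RRM2B and SESN1. This pattern was met by 10.2% of all targets and by 17.1% of the 9884 targets detected on all arrays. The array labelled control IP 2 lay above the mean of the other controls by 1.13 for SHISA5, by 0.61 for RRM2 and by 0.38 for MDM4 on the normalized log2 scale. The array labelled Stau1 IP 2 differed from the mean of the other Stau1 IPs by -1.69, -1.55 and -0.74 for the same transcripts. For BAX these values were 0.09 and 0.10. Whether the labels of the arrays numbered 2 were exchanged was not tested.

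**Figure D3:**
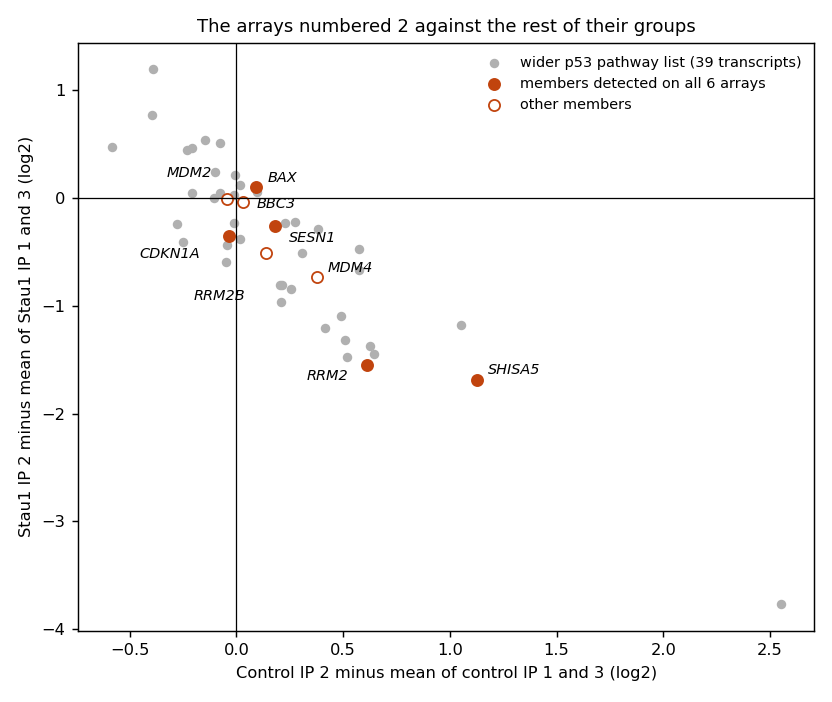
Normalized log2 signal of the array labelled control IP 2 minus the mean of the other control IPs (horizontal) against that of the array labelled Stau1 IP 2 minus the mean of the other Stau1 IPs (vertical). Members are orange, filled where detected on all 6 arrays, and 39 transcripts of a wider p53 pathway list are grey; SHISA5 and RRM2 lie at the lower right and BAX lies near 0 on both axes.

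A wider list of 62 textbook p53 pathway genes, which excludes the members, was read in the same way. All 62 were matched to a target, 39 were detected on all 6 arrays and 11 on none. By the labels, 0 of 62 were enriched and 0 were depleted at 2.5-fold and p under 0.05, and at an unadjusted p under 0.05 in limma 5 were higher, against 3.65% of all targets and 9.48% of those detected on all arrays, and 4 were lower, against 5.2% and 12.6%. The median difference was 0.01 on the log2 scale. All Stau1 IPs lay above all control IPs for 7 of 62 genes, against 6.4% of all targets and 9.6% of those detected on all arrays. By role and at an unadjusted p under 0.05, 1 of 18 genes of cell cycle arrest was higher and 2 were lower. Of 16 genes of apoptosis 2 were higher and 1 was lower, and of 13 regulators of p53 0 were higher and 1 was lower. Among 7 genes of repair and metabolism and 8 growth and secreted factors, 1 of each was higher and 0 were lower. Without the arrays numbered 2, 1 gene was enriched, against 0.612% of all targets and 1.99% of those detected on all arrays. Of the 62, 0 were depleted, against 0.0396% and 0.142%, and the median difference was 0.07. At an adjusted p under 0.05 in limma, 7 were then higher, against 3.16% of all targets and 9.24% of those detected on all arrays. At the same threshold 2 were lower, and 2039 of all 37879 targets were called in either direction. The pattern of the 3 highest arrays was met by 18 of 62 genes, against 10.2% of all targets and 17.1% of those detected on all arrays.

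The genes with the largest differences by the labels, among those detected on all arrays, were CYCS, SESN2 and BTG2. CYCS encodes cytochrome c, which BAX releases from mitochondria. Its signal was 187, 1773 and 225 in control IPs 1 to 3 and 2914, 137 and 2658 in Stau1 IPs 1 to 3, with the same 3 arrays high as for SHISA5, and the groups overlapped. The difference of CYCS was 1.11 (adjusted p = 0.895 in limma) by the labels and 3.22 (SE 0.12, 9.30-fold, adjusted p = 0.0101 in limma) without the arrays numbered 2. SESN2, a second sestrin, had 220, 480 and 436 in control IPs and 721, 473 and 768 in Stau1 IPs, with differences of 0.72 (adjusted p = 0.422 in limma) and, without the arrays numbered 2, 0.89 (adjusted p = 0.233 in limma). BTG2, an antiproliferative p53 target, had 251, 527 and 283 in control IPs and 745, 332 and 826 in Stau1 IPs, with differences of 0.72 (adjusted p = 0.501 in limma) and, without the arrays numbered 2, 1.13 (adjusted p = 0.0105 in limma).

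At the other end were TIGAR, CDK1 and CCNB1. TIGAR, a regulator of glycolysis listed under its older name C12ORF5, differed by -0.54 (adjusted p = 0.663 in limma), and by -0.57 without the arrays numbered 2 (adjusted p = 0.617 in limma). CDK1, the mitotic kinase listed as CDC2, differed by -0.51 (adjusted p = 0.714 in limma) and by -0.24 without these arrays (adjusted p = 0.854 in limma). CCNB1, the cyclin that partners CDK1, had signals of 2576, 2052 and 2329 in control IPs and 1439, 2380 and 1419 in Stau1 IPs. The array labelled Stau1 IP 2 lay within the controls, and the array labelled control IP 2 was the lowest control. CCNB1 differed by -0.49 (adjusted p = 0.691 in limma) by the labels and by -0.88 (adjusted p = 0.0240 in limma) without the arrays numbered 2, against the direction of SHISA5.

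Transcripts with the profile most like that of a member were sought among 9443 others with a symbol, detected on all arrays, for the 3 members detected on all arrays whose normalized values spanned over 1 on the log2 scale. Likeness was the root mean square difference of the centred log2 values over the 6 arrays. The profiles nearest to SHISA5 were TMEM103 at 0.056, LRP3 at 0.079 and FCF1 at 0.082. LRP3 had 1929, 6385 and 2581 in control IPs and 8912, 2814 and 9985 in Stau1 IPs, with the same 3 arrays high as for SHISA5. The profiles nearest to RRM2 were UNC84A at 0.063, LOC646567 at 0.094 and VOPP1 at 0.109, and those nearest to CDKN1A were TMEM55B at 0.106, TCTA at 0.107 and MEPCE at 0.109. These values describe 6 arrays of 2 groups and carry no test.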

How the data were processed

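RNA from 3 control IPs and 3 Stau1 IPs was hybridized on 6 arrays of the Illumina HumanWG-6 BeadChip. The signal of a target was deposited as an intensity from BeadStudio, neither background subtracted nor normalized. The authors also gave the bead standard error on the same intensity scale, the bead number and, per the file headers, a detection p-value. Groups were taken from the labels. The steps that the methods name were rebuilt without the software of the study, using limma 3.58.1 and mgcv 1.9.3 under R 4.3.3. Background was the median signal of 200 targets whose detection p lay closest to 0.5, and was subtracted. A variance stabilizing transformation was fitted to the SD between beads, its constant term came to its limit of 1 on all arrays, and robust spline normalization to the array labelled control IP 2 followed. limma tested all 37879 targets with Benjamini-Hochberg adjustment. A change over 2.5-fold with p under 0.05 was the threshold of the methods.

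The spline was first weighted by the unadjusted difference between arrays, in 1 pass. That left the array medians between 7.19 and 7.33, and after the values of the members had been seen it was replaced by weights from the residuals of the fit, which left them between 7.29 and 7.31. The first weighting was kept as an alternative. Beside it, 3 further normalizations were tried without the arrays numbered 2, and all of these were chosen after seeing the data. The members, the pathway list and the tests were chosen with earlier results of these data known.

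Named genes were the 9 members, the pathway genes past the threshold or among the 3 highest and 3 lowest differences of those detected on all arrays, the 3 nearest profiles of each member with a span over 1, and STAU1. The other genes named, including the marker genes, are from fixed lists. A further marker of other cell types is not reported here. The scripts were tested on simulated data. The number of arrays limits the precision. Same-numbered arrays deviated from their groups in opposite directions, with correlations of -0.45, -0.77 and -0.38. These values cannot decide whether the numbers that the labels share pair the arrays. The deviations of the arrays in a group depend on each other, and an exchange of labels was not tested. Plots were drawn with matplotlib.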

Additional observations from a re-analysis of the deposited data

How the results depend on the processing

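By the labels, 17 alternatives changed the transformation, normalization, background, filter, test, threshold, block or arrays. With all 6 arrays kept, including the first spline weighting, no call and no direction of a member changed in 97 values of 11 settings, and the lowest adjusted p was 0.158. The sizes moved: with the other form of the constant term SHISA5 differed by 1.78, CDKN1A by 0.91, BAX by 0.81 and RRM2 by 0.37, and with neqc BAX by 0.28, RRM2 by 0.11 and MDM4 by 0.035. With the replicate number as a block, 0 members and 0 of all 37879 targets were enriched. Omission of background subtraction gives the same values by construction, since the fitted constant absorbs it. Leaving out 1 array at a time gave 0 to 1 enriched members and 0 to 1 enriched genes of the wider list, in both cases 1 without Stau1 IP 2 (SHISA5 and CYCS). It gave differences from -0.044 to 0.74 for RRM2, -0.16 to 0.11 for RRM2B and -0.11 to 0.066 for SESN1, each with a change of direction, and 0.67 to 1.53 for SHISA5, 0.18 to 0.57 for MDM4 and 0.33 to 0.77 for CDKN1A, with none. Stau1 IP 2 gave the highest value when left out for SHISA5, MDM4, RRM2, RRM2B and SESN1, and control IP 3 for CDKN1A. MDM2 was detected on no array, and its values of -0.0017 to 0.026 carry no direction. All targets enriched were 1 on all arrays, 7 without control IP 2, 100 without Stau1 IP 2 and 232 without both arrays numbered 2, with 0, 1, 8 and 15 depleted; the other form of the constant term gave 37 and 113, neqc 3 and 6, and a 2-fold threshold 5 and 10.

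Without both arrays numbered 2, 1 member and 1 gene of the wider list were enriched, and RRM2B (0.16) and SESN1 (0.13) changed direction. The same 2 changed direction under each added normalization, to 0.22 and 0.35 with the first weighting, 0.12 and 0.11 with quantile normalization, 0.19 and 0.26 with median centring and 0.015 and 0.048 with neqc. In all 4 of these, 1 member was enriched; enriched genes of the wider list were 2 with the first weighting and median centring and 1 with the others, and 2 were depleted with neqc. The first weighting enriched 311 and depleted 10 of all targets. The cause of these differences was not tested.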
